A study of Mus musculus with 2 samples.

Results

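The CCN family comprises small secreted matricellular proteins, which sit in the extracellular matrix and signal to cells without forming its structure. The members followed here were Ctgf, Cyr61, Nov, Wisp1 and Wisp2, called in current nomenclature Ccn2, Ccn1, Ccn3, Ccn4 and Ccn5. They were chosen by symbol, 5 of 53698 gene entries, before any filter on level. Most CCN proteins consist of an insulin-like growth factor binding module, a von Willebrand factor type C module, a thrombospondin type 1 module and a C-terminal cystine knot, through which they bind integrins, heparan sulfate proteoglycans, LRP receptors and growth factors. Ctgf and Cyr61 are classical targets of the Hippo pathway co-activators YAP and TAZ, Ctgf is also induced by TGF-beta, and Cyr61 was itself first described as a growth factor-inducible immediate early gene. Immediate early genes are transcribed within minutes of a stimulus without new protein synthesis. In the kidney, CCN genes are best known from fibroblasts, vessels and injured tubules.

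Single-cell RNA profiles came from kidneys of FVBN mice, from cells carrying both PDGF receptors, alpha and beta, the receptors by which fibroblasts and pericytes are sorted. There was 1 library labelled sham, from a healthy kidney, and 1 labelled UUO, taken 10 days after the ureter on one side was obstructed, a standard model of renal fibrosis. No allele, transgene or further treatment is given in the labels for either group, and nothing states how many animals were pooled. Both kidneys were digested for 30 min at 37 °C with Liberase TL and DNAse, and 3′ droplet libraries with unique molecular identifiers (UMIs, tags that count captured transcripts) were made.

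The library labelled sham held 10812 barcodes and 85359332 UMIs, and the library labelled UUO held 1291 barcodes and 6023072 UMIs. After filters and removal of likely doublets, 9748 and 1043 cells remained, and 11 of the retained barcodes occurred in both libraries. Markers placed 8153 cells labelled sham (83.6%) and 612 labelled UUO (58.7%) in a stromal class. Pdgfra was found in 74.8% and 63.9% of these cells, and Pdgfrb in 80.5% and 47.2%. Both receptors are among the stromal markers by which the class was drawn. These shares are raised by that rule and are no independent check of the class or the sort. The libraries went partly against their labels. Acta2, a contractile actin that marks myofibroblasts, was 4.78-fold higher in stromal cells labelled sham, and Postn, which encodes the matrix protein periostin, 2.06-fold higher in those labelled UUO. Both groups are therefore named as labelled, and no difference is read as an effect of obstruction. With 1 library in each group there is no replicate spread and no test. Intervals are 95% and cover counting error alone.

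Each gene has 5 exons and lies on the mm10 assembly as follows, in GENCODE M21. Ctgf occupies chr10:24595442-24598683 on the plus strand, with a coding sequence of 1044 bases. It is overlapped on the opposite strand by Gm15270, which was at 15.4 CPM (counts per 1000000 UMIs of a class) in stromal cells labelled sham and 13.7 CPM in those labelled UUO. Cyr61 occupies chr3:145646976-145649981 on the minus strand, with 1137 coding bases. Nov lies at chr15:54745702-54754039 and Wisp1 at chr15:66891320-66923201, both on the plus strand, with 1062 and 1101 coding bases. Wisp2 lies at chr2:163820861-163833146 on the plus strand and has the shortest coding sequence of the 5, with 753 bases. Its protein lacks the C-terminal cystine knot of the others. All deposited values above 0 of the 5 genes were whole numbers within 1e-06.

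Of the 5 genes, 1 matched the RefSeq promoter sequences used here: Cyr61, the member whose level is set beside immediate early genes in the results that follow. Its 250 upstream bases are shown. The stretch is chr3:145649986-145650235 of GRCm38.p6, minus strand, read 5′ to 3′ from RefSeq and ending at the base before the RefSeq start, which lies a few bases upstream of the GENCODE start given for the gene. Distances are counted from the RefSeq start. Capitals mark the letters of 3 motifs, described from the start outwards after the sequence.

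Cyr61 upstream: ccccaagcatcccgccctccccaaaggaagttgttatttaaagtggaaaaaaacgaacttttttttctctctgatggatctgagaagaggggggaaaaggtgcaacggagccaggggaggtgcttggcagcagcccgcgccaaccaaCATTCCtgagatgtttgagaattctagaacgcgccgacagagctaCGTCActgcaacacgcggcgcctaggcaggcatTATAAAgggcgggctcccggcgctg

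TATAAA, the letters of a TATA box, lies 25 to 20 bases before the start, and 12.4% of 32851 RefSeq promoter windows hold it on either strand. The short form of the cyclic AMP response element, TGACG, lies on the opposite strand 58 to 54 bases before the start, and 17.8% of windows hold it. Further out, 103 to 98 bases before the start and also on the opposite strand, lies GGAATG, a motif bound by the TEAD partners of YAP and TAZ. It occurs in 12.6% of the windows. An AP-1 motif (TGANTCA), found in 6.75% of windows, was not among the letters of this stretch, nor was a CArG box, the motif of the serum response factor, found in 1.47%. All motifs were searched on both strands. A match is a description of letters, not a site shown to be used.

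Ctgf encodes connective tissue growth factor, which promotes matrix production and is a widely used readout of YAP and TGF-beta activity. With the label sham it was at 181 CPM (178 to 185) in stromal cells, 58.1 (26.6 to 110) in 22 proximal tubule cells, 56.2 (44.8 to 69.5) in 356 endothelial cells, 45.1 (20.6 to 85.6) in 38 pericyte or smooth muscle cells, 36.1 (27.7 to 46.2) in 149 loop or distal tubule cells and 22.0 (14.3 to 32.2) in 248 macrophages or dendritic cells. The stromal level stood 3.23-fold (2.61 to 4.05) above the endothelial one and 8.26-fold (5.64 to 12.7) above that of macrophages, while each of the lower classes overlapped its neighbours in this order. The order labelled UUO was different. Ctgf was at 930 CPM (783 to 1097) in 30 pericyte or smooth muscle cells, 647 (622 to 673) in stromal cells, 222 (176 to 278) in 75 endothelial cells and 56.5 (35.4 to 85.6) in 81 proximal tubule cells. The pericyte or smooth muscle value was 1.44-fold (1.205 to 1.70) above the stromal one and rests on 141 counts. Median stromal marker UMIs in those cells were 49.7 per 10000, against 250 in stromal cells.

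Cells that met no class held much of the Ctgf signal labelled UUO. Over the 209 unassigned cells Ctgf stood at 1233 CPM (1152 to 1318), 1.91-fold (1.76 to 2.06) above the stromal class. Of their 866 Ctgf counts, 362 came from 40 cells kept out of the stromal class by endothelial markers, at 1875 CPM. Among those 40 cells 95% had a UMI of Eng, 27.5% of Pecam1 and 10% of Cdh5, while 95% had one of Fbln5, 92.5% of Igfbp3 and 72.5% of Pdgfrb. The 26 cells with pericyte markers at that level, a group that may share cells with those 40, had Ctgf at 1536 CPM. Fbln5 and Igfbp3 were also found in 96.7% and 93.3% of 30 unassigned cells with proximal tubule markers at that level. The stromal class as drawn thus leaves out cells with stromal transcripts and high Ctgf.

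Cyr61 encodes an adhesive ligand of integrins. Labelled sham it was at 1289 CPM (1280.5 to 1297.8) in stromal cells, 877 (752 to 1017) in pericyte or smooth muscle cells, 651 (611 to 693) in endothelial cells, 343 in loop or distal tubule cells, 297 in proximal tubule cells, 246 in macrophages and 160 (91.3 to 259) in 25 T or NK cells. Loop or distal and proximal tubule intervals overlapped, as did those of proximal tubule cells, macrophages and T or NK cells. The order was the same with the label UUO over the classes with at least 20 cells there: 972 CPM (942 to 1004) in stromal, 752 (620 to 904) in pericyte or smooth muscle, 499 (428 to 579) in endothelial and 223 (179 to 276) in proximal tubule cells. Cyr61 UMIs occurred in 87.5% of stromal cells labelled sham, at a median of 8229 UMIs a cell. They also occurred in 57.3% of macrophages, which served as the reference for free RNA, at a median of 4900 UMIs. With every cell thinned to 1000 UMIs, the shares were 54.5% and 19.1%.

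Wisp1 is induced by WNT1 in mammary cells and encodes a secreted ligand of fibroblasts and bone. It reached 110 CPM (108 to 113) in stromal cells labelled sham, 58.1 in proximal tubule cells on 9 counts, 54.2 (43.0 to 67.3) in endothelial cells, 45.1 in pericyte or smooth muscle cells on 9 counts, 16.04 (9.66 to 25.1) in macrophages and 9.16 (5.24 to 14.9) in loop or distal tubule cells. The stromal level was 2.04-fold (1.64 to 2.57) above the endothelial and 12.1-fold (7.42 to 21.1) above the loop or distal tubule level. Summed stromal markers were at 2276 CPM in those endothelial cells and 15799 in stromal cells, and their part in the endothelial values of the family was not tested. After thinning, Wisp1 was found in 10.0% of stromal cells, 3.57% of endothelial cells and 1.82% of macrophages.

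Wisp2, which lacks the cystine knot and is counted among the WNT1-inducible genes, had few counts outside stromal cells among the named classes. Labelled sham it was at 17.4 CPM (16.4 to 18.4) in stromal cells, 4.68 in endothelial cells on 7 counts, 4.22 in macrophages on 5 counts and 1.72 in loop or distal tubule cells on 3 counts. It was also at 95.8 CPM (65.1 to 136) in 52 cells with markers of more than 1 class, on 31 counts. Labelled UUO it was at 62.9 CPM (55.2 to 71.3) in stromal cells, 20.6 (8.87 to 40.5) in proximal tubule cells and 17.1 (6.28 to 37.2) in endothelial cells. After thinning, 1.24% of stromal cells labelled sham had a Wisp2 UMI and 0 of 220 macrophages did, which allows up to 1.66% by the Clopper-Pearson interval. Labelled UUO, 4.05% of stromal cells had one, against 5.26% (1.10 to 14.6) of 57 thinned proximal tubule cells. That interval is too wide to separate them, so neither share is read as expression above background. The stromal level labelled UUO rests largely on the cells with many UMIs described with the spread over cells. For the label sham, cells with at least 10 UMIs held 27.4% of the counts.

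Nov, the family member often described as opposing Ctgf, was the rarest of the 5 by cells. It had 292 counts in 107 stromal cells labelled sham and 35 counts in 31 stromal cells labelled UUO, at 4.41 (3.92 to 4.95) and 9.06 CPM (6.31 to 12.6). No Nov count was found in endothelial, macrophage or tubule classes of either library, and pericyte or smooth muscle cells had 2 and 3 counts. The 52 cells labelled sham with markers of more than 1 class had 8 counts, at 24.7 CPM (10.7 to 48.7), above the stromal level. The ratio of stromal to pericyte or smooth muscle levels was 0.440 (0.121 to 3.65) labelled sham and 0.458 (0.144 to 2.33) labelled UUO, so no order could be read. Its stromal level labelled sham was at least 2.20-fold higher than in endothelial cells and at least 2.57-fold higher than in loop or distal tubule cells, set against 3 counts in each class; the lower limits of the exact 95% interval were 1.78 and 2.08. With 5 CPM added, of the 4 members at 10 CPM or more, 4 were at least 2-fold higher in stromal cells than in macrophages labelled sham, against 21.0% of genes. Against endothelial cells 2 were, Ctgf and Wisp2, where 10.4% of genes were. Labelled UUO, 3 were higher than in endothelial cells, Ctgf, Wisp1 and Wisp2, where 12.1% of genes were. Wisp2 labelled sham passed 10 CPM through stromal cells alone, with 4.22 CPM in macrophages and 4.68 in endothelial cells. The same held for Wisp1 labelled UUO, at 5.70 CPM in endothelial cells on 2 counts. In those comparisons each could enter the counts only as higher in stromal cells. Wisp3, the remaining family gene, had 1 count in stromal cells labelled sham and 0 in those labelled UUO. The plot of levels by class shows these orders together.

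**Figure D1:**
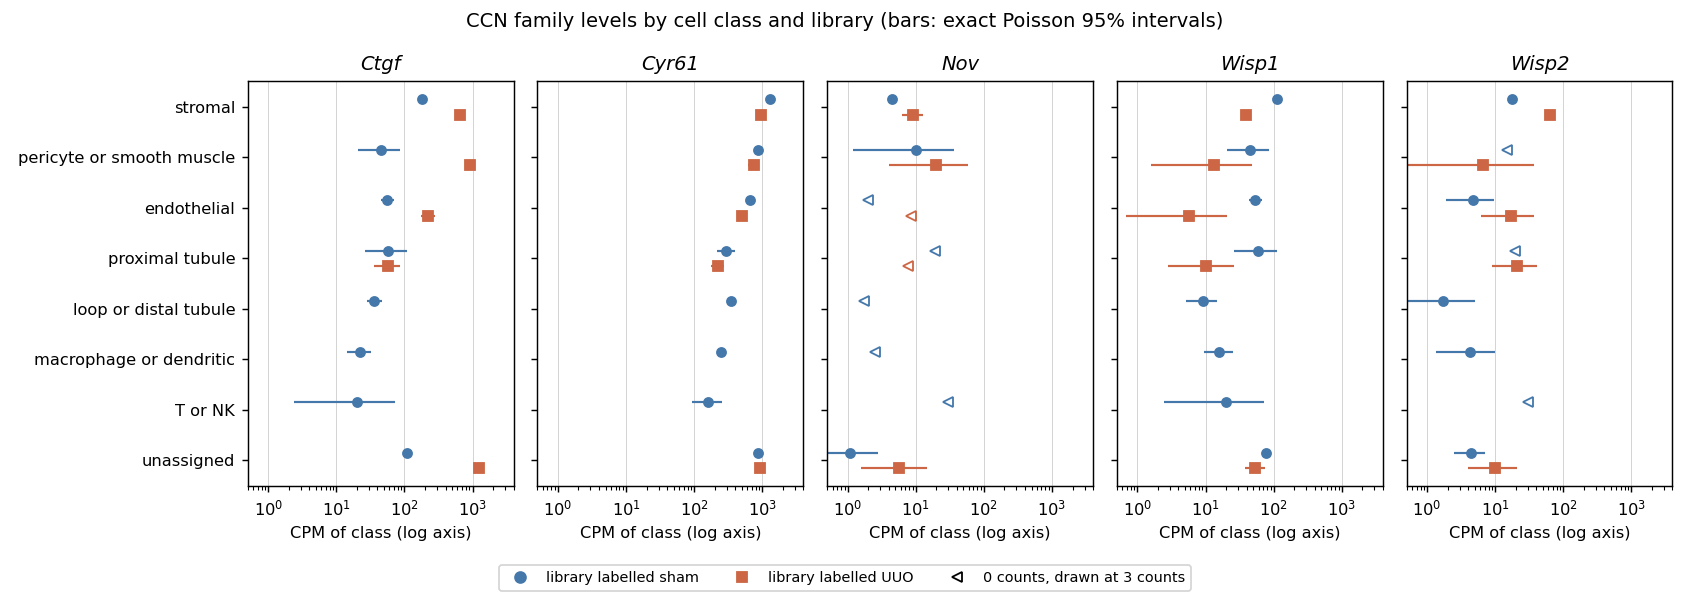
CPM of each gene (log axis) in stromal, unassigned and the named other classes with at least 20 cells (cells with markers of more than 1 class are not drawn), with circles for the library labelled sham, squares for the library labelled UUO, and bars for exact Poisson 95% intervals; open triangles mark 0 counts, drawn at the level of 3 counts. Among the circles drawn, leaving aside the open triangles, those of stromal cells lie furthest right for Ctgf, Cyr61, Wisp1 and Wisp2, while the Ctgf points labelled UUO lie furthest right in unassigned cells at 1233 CPM.

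Between the libraries, the stromal cells differed in opposite ways for different members. Ctgf was 3.57-fold (3.42 to 3.72) and Wisp2 3.62-fold (3.14 to 4.16) higher with the label UUO. Wisp1 was 2.81-fold (2.39 to 3.32) and Cyr61 1.33-fold (1.28 to 1.37) higher with the label sham. Nov was 2.05-fold (1.40 to 2.92) higher with the label UUO, below 10 CPM in both. With 5 CPM added to each value, Ctgf and Wisp2, 2 of the 4 members, were at least 2-fold higher labelled UUO, against 12.3% of 9594 genes. Wisp1 was at least 2-fold lower, against 5.04%. The median log2 ratio of all those genes was -0.03. Stromal cells labelled UUO also carried more RNA of other cells: summed proximal tubule markers were at 790 against 17.6 CPM and erythroid markers at 351 against 19.5 CPM, with none of the 10 tubule markers at 0 in either library. Their part in these ratios was not tested.

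Shares of cells pointed the same way as the summed levels, both thinned to equal depth and unthinned. Thinned to 1000 UMIs, Ctgf was found in 12.8% (12.1 to 13.6) of stromal cells labelled sham and 31.7% (27.9 to 35.7) labelled UUO. Cyr61 was found in 54.5% and 42.8%, Wisp1 in 10.0% and 4.75%, and Nov in 0.299% and 1.06%. Thinning left out 137 of 8153 stromal cells labelled sham and kept 568 of 612 labelled UUO. In the unthinned cells Ctgf was found in 41.6% and 56.2%, Cyr61 in 87.5% and 72.9%, Wisp1 in 47.8% and 16.8%, and Nov in 1.31% and 5.07%, at medians of 8229 and 5422.5 UMIs a cell. The thinned share with Ctgf was 4.09% of macrophages labelled sham and 3.51% of proximal tubule cells labelled UUO, where only 2 macrophages were found and the median was 1826 UMIs. Cyr61 was found in 10.5% of those thinned tubule cells, and Wisp1 and Nov in 0 of 57, which allows up to 6.27%. The Wisp1 and Nov shares labelled UUO lie under that limit.

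Ctgf was also higher with the label UUO in other classes. It was 3.96-fold (2.87 to 5.46) higher in endothelial cells, 20.6-fold (10.6 to 46.0) higher in pericyte or smooth muscle cells, where 9 counts labelled sham met 141 labelled UUO, and 11.3-fold (10.0 to 12.7) higher in unassigned cells. In proximal tubule cells the values were 58.1 and 56.5 CPM on 9 and 22 counts, a ratio of 0.972 (0.430 to 2.40). Cyr61 differed little by comparison: it was 1.30-fold (1.11 to 1.54) higher in endothelial cells labelled sham, and its interval included equal levels in pericyte or smooth muscle, proximal tubule and unassigned cells. Wisp1 was higher with the label sham in endothelial cells as well, on 81 and 2 counts, 9.49-fold (2.54 to 79.7). These ratios are set out in the plot of ratios between libraries.

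**Figure D2:**
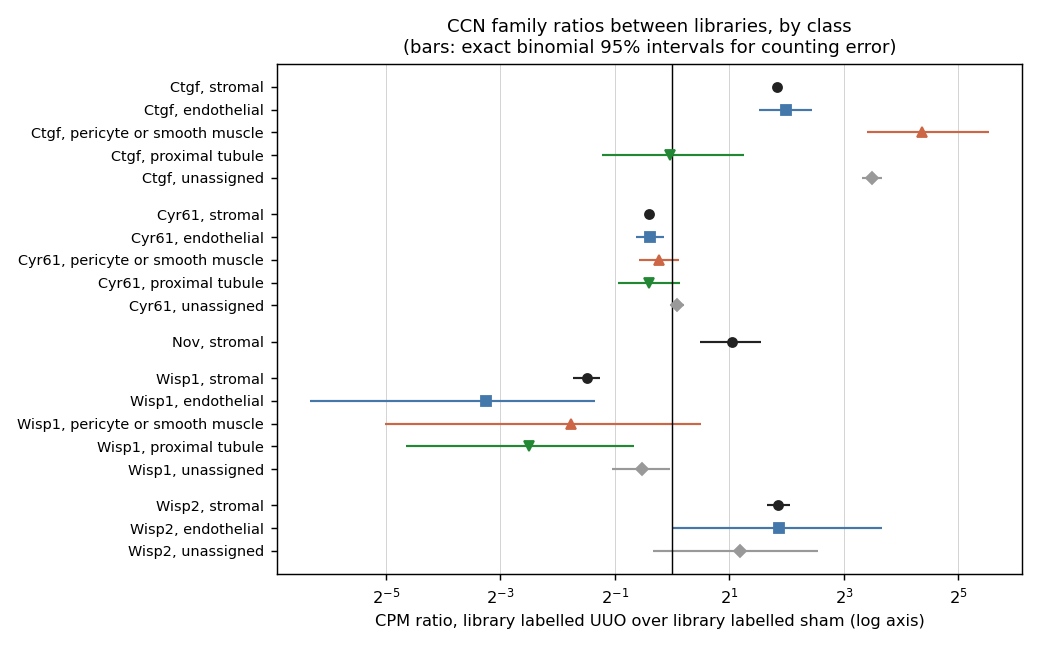
Ratio of CPM between the library labelled UUO and the library labelled sham (log axis) for each gene and class with counts in both libraries and at least 10 in all, with exact binomial 95% intervals. Ctgf lies to the right of 1 in every class drawn except proximal tubule cells, where it is 0.972, and Cyr61 lies close to 1 throughout.

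The stromal difference in Wisp2 rested on few cells. Labelled UUO, 558 of 612 stromal cells had no Wisp2 UMI, and 6 cells with at least 10 UMIs held 61.3% of its 243 counts, up to 45 in 1 cell. Labelled sham, 18 such cells held 27.4% of 1149 counts. Nov was as uneven with the label sham, where 5 of 8153 cells held 42.1% of its counts, up to 45 in 1 cell. Ctgf was spread more widely: 86 stromal cells labelled UUO (14.1%) had at least 10 UMIs and held 66.7% of its counts, against 3.13% of cells with 36.7% labelled sham. Wisp1 was spread thinly, with at most 11 UMIs in any stromal cell labelled sham.

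Both libraries held cells with UMIs of Xist, the X-inactivation RNA, and cells with UMIs of Y-linked genes, so each mixed cells of both sexes. In stromal cells labelled UUO Wisp2 was at 17.8 CPM (10.7 to 27.9) in 162 cells with Xist alone and 108 (91.9 to 127) in 184 with Y-linked UMIs alone. It was at 21.3 CPM in the 71 cells with both and at 78.3 CPM in the 195 with neither. How the 6 cells that held 61.3% of Wisp2 counts fell among these groups was not tested. Labelled sham, Wisp2 was at 16.9 CPM in cells with Xist alone and 18.9 CPM in those with Y-linked UMIs alone. Among Xist cells alone, Wisp2 therefore differed little between libraries. Ctgf was at 157 and 735 CPM in Xist cells and at 225 and 542 CPM in Y-linked cells labelled sham and UUO, and was higher with the label UUO in both. Wisp1 was at 98.6 and 45.1 CPM in Xist cells and at 138 and 40.4 CPM in Y-linked cells, and was higher with the label sham in both.

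Other genes of the pathways around the family differed between libraries in several directions, counted with 5 CPM added among members at 10 CPM or more in either library. The share of all genes past 2-fold, to be set beside each count, was 12.3% higher and 5.04% lower with the label UUO. Of 14 measured YAP and TAZ targets, 3 were higher by 2-fold or more with the label UUO and 2 lower, with a median log2 ratio of -0.15. The higher ones were Igfbp3, a binding protein of insulin-like growth factors, at 217 and 2621 CPM labelled sham and UUO; F3, the tissue factor that starts coagulation, at 55.6 and 384 CPM; and Nt5e, the ectonucleotidase CD73, at 3.04 and 20.2 CPM. Myof, the membrane repair gene myoferlin, and Tgfb2, a TGF-beta ligand, were 5.45-fold and 2.62-fold higher with the label sham. Nt5e passed the minimum of 10 CPM only with the label UUO. Myof, at 39.5 and 7.25 CPM labelled sham and UUO, passed it only with the label sham. Of 13 measured Hippo pathway genes, 0 were that much higher and 1 lower, a share near that of all genes, with a median of -0.29. The 1 lower gene was Tead2, one of the DNA-binding partners of YAP, 3.93-fold (2.94 to 5.39) higher with the label sham. Vgll3, a TEAD cofactor, was at 47.7 and 61.6 CPM, Tead1 at 41.9 and 23.3 CPM, and Nf2, which encodes the upstream Hippo regulator merlin, at 11.1 CPM in both.

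Of 13 TGF-beta targets, 8 were lower by 2-fold or more with the label UUO and 1 was higher, where 5.04% and 12.3% of all genes were, with a median log2 ratio of -1.19. Bhlhe40, a transcriptional repressor, was 7.59-fold (6.58 to 8.80) higher with the label sham, and Ltbp2, a latent TGF-beta binding protein, 7.54-fold (5.06 to 11.8). Of the 8 lower genes, Ltbp2 and Tgif1 passed the minimum of 10 CPM only with the label sham. They were at 46.85 and 44.4 CPM there, and at 6.21 and 8.28 CPM labelled UUO. Tgfbi, an adhesive matrix protein, was 2.65-fold (2.51 to 2.81) higher with the label UUO. Of 13 measured targets of actin and the serum response factor, 5 were lower, 0 higher and 8 within 2-fold, with a median of -0.81. Acta2 was the lowest, followed by Tpm1, a tropomyosin, 3.81-fold higher with the label sham. At the other end Zyx, a focal adhesion protein, was at 59.96 and 115 CPM and Actb, the cytoplasmic actin, at 3260.2 and 3745 CPM.

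WNT targets and receptors were fewer. Of 6 measured WNT targets, 2 were lower and 2 higher with the label UUO, where 5.04% and 12.3% of all genes were. The feedback inhibitors Nkd2 and Nkd1 were 19.96-fold (14.2 to 29.0) and 2.84-fold (2.55 to 3.16) higher with the label sham, as was Wisp1. The R-spondin receptor Lgr5 and the WNT deacylase Notum were at 1.45 and 1.47 CPM there, and at 15.3 and 14.2 CPM with the label UUO, through which alone they passed the minimum of 10 CPM. Nkd2, at 170 and 8.54 CPM labelled sham and UUO, passed it only with the label sham. Of 8 measured CCN receptors 1 was higher by 2-fold or more with the label UUO and none lower, a share near the 12.3% of all genes. It was the WNT co-receptor Lrp6, at 33.3 and 74.0 CPM. The syndecan Sdc4 was at 94.2 and 142 CPM, and the integrin subunits Itgav and Itgb5 were 1.67-fold and 1.86-fold higher with the label sham.

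The immediate early list of 22 genes holds no CCN member. In stromal cells it made up 1.65% of UMIs labelled sham and 2.08% labelled UUO, while the median share of a cell was 1.40% and 1.15%, the other way round. Of 21 members at 10 CPM or more, 3 were higher by 2-fold or more with the label UUO and 1 lower, shares near the 12.3% and 5.04% of all genes, with a median log2 ratio of 0.37. Atf3, a stress-induced transcription factor, was at 106 and 504 CPM labelled sham and UUO, Myc at 29.8 and 89.6 CPM and Fosb at 327 and 681 CPM. Egr2 was at 108 and 50.5 CPM, and Klf2, a flow-responsive factor, at 1059 and 686 CPM. Of 13 heat shock genes 3 were higher by that much and 0 lower, against the same shares of all genes, led by the chaperones Dnajb1, at 148 and 474 CPM, and Hsph1, at 12.3 and 31.8 CPM. Hspe1 and Hsp90ab1 had the lowest ratios of the list, at 268 and 285 CPM and at 719 and 783 CPM.

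Within each library, stromal cells were ordered by what share of UMIs the immediate early list took in each cell and divided into equal terciles. The order sorts cells by that list alone, and cells of 1 library share their source. Labelled sham, the median share was 0.516% in the lowest tercile and 3.07% in the highest, with 2718 and 2717 cells. Labelled UUO it was 0.392% and 3.50%, with 204 cells each. By construction the list's own genes differed: Fos was 7.70-fold higher in the highest tercile labelled sham and 12.1-fold labelled UUO, Jun 7.38-fold and 13.7-fold, Egr1 4.66-fold and 6.80-fold, and Atf3 10.2-fold and 8.57-fold.

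Cyr61 went with the immediate early genes. It was at 865 CPM (853 to 877) in the lowest tercile labelled sham, 1291 (1277 to 1306) in the middle and 1760.2 (1742 to 1779) in the highest. The ratio of highest to lowest was 2.04 (2.00 to 2.07), at rank 136 of 8554 genes by log2 ratio. With 5 CPM added, 1.60% of those genes were higher by 2-fold or more and 0.0351% lower, and Cyr61 alone among the members passed that fold. Labelled UUO, Cyr61 was at 563 CPM (519 to 611), 1276 (1214 to 1340.5) and 1006 (957 to 1057). It was highest in the middle tercile, and the highest tercile was 1.79-fold (1.62 to 1.97) above the lowest. Median depth in those terciles was 4125.5, 5192.5 and 7887 UMIs a cell. With terciles taken within 5 bins of depth, the ratio was 1.34 (1.24 to 1.46) labelled UUO and 2.00 (1.96 to 2.03) labelled sham.

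Ctgf behaved otherwise. Labelled sham it was nearly level, at 169 CPM (163 to 174), 199 (193 to 205) and 175 (170 to 181), a ratio of highest to lowest of 1.04 (0.994 to 1.09). Labelled UUO it was at 1149 CPM (1085 to 1216) in the lowest tercile, 774 (726 to 825) in the middle and 213 (191 to 237) in the highest. That is 5.40-fold (4.78 to 6.11) lower in the highest tercile, at rank 9698 of 9722 genes, and 4.87-fold (4.30 to 5.53) lower within depth bins. With 5 CPM added, 7.69% of genes were lower by 2-fold or more and 4.72% higher in that comparison. In the highest tercile the Ctgf levels of the libraries, 175 and 213 CPM, were closer than in the lowest, 169 and 1149 CPM.

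Wisp1 resembled Ctgf in this respect. It was at 74.4 CPM (58.8 to 92.8), 41.1 (30.6 to 54.1) and 14.6 (9.26 to 21.9) in the terciles labelled UUO, 5.09-fold (3.16 to 8.50) lower in the highest, and at 115, 118 and 96.2 CPM in those labelled sham. Wisp2 was at 66.7, 71.0 and 54.0 CPM labelled UUO, a ratio of highest to lowest of 0.809 (0.582 to 1.13), and 2.37-fold (1.64 to 3.46) lower within depth bins. It was at 17.1, 18.7 and 16.2 CPM labelled sham. Nov was at 1.91, 5.25 and 6.24 CPM labelled sham, on 43, 123 and 126 counts, a ratio of 3.27 (2.30 to 4.74). Nov UMIs were found in 1.03% of cells of the lowest tercile and 1.47% of the highest. Among the 122 cells with at least 2 of Clec3b, Sfrp4 and Inmt the direction was turned: on 58 and 24 counts, Nov was 2.20-fold (1.35 to 3.71) lower in the highest tercile. Those terciles held 40 cells each. Labelled sham, 5 stromal cells held 42.1% of Nov counts, and where they fell in either split was not tested. Labelled UUO, Nov was at 8.58, 12.1 and 6.98 CPM on 9, 15 and 11 counts, with intervals that overlapped.

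The stromal cells were not of 1 kind, so terciles were also taken within cells split by a marker set. How the terciles divided between kinds of cell was not tested. Among the 428 stromal cells labelled UUO with UMIs of at least 2 of Clec3b, Sfrp4 and Inmt, Ctgf was at 951 CPM in the lowest tercile and 187 in the highest, 5.09-fold (4.40 to 5.91) lower. Among the other 184 it was at 1509 and 669 CPM, 2.26-fold (1.81 to 2.82) lower. Labelled sham, the 122 cells with that set also had lower Ctgf in the highest tercile, at 185 and 55.3 CPM, 3.34-fold (2.04 to 5.70), on 77 and 21 counts. The remaining 8031 cells labelled sham had 168 and 178 CPM. Cyr61 was 2.06-fold (2.02 to 2.09) higher in the highest tercile of those 8031 cells, and at 1108 and 1148 CPM in the 122 cells. Ordered by heat shock genes instead, Ctgf was 2.86-fold (2.57 to 3.18) lower in the highest tercile labelled UUO and 1.39-fold (1.33 to 1.46) higher labelled sham, and Cyr61 was 1.30-fold and 1.44-fold higher.

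**Figure D3:**
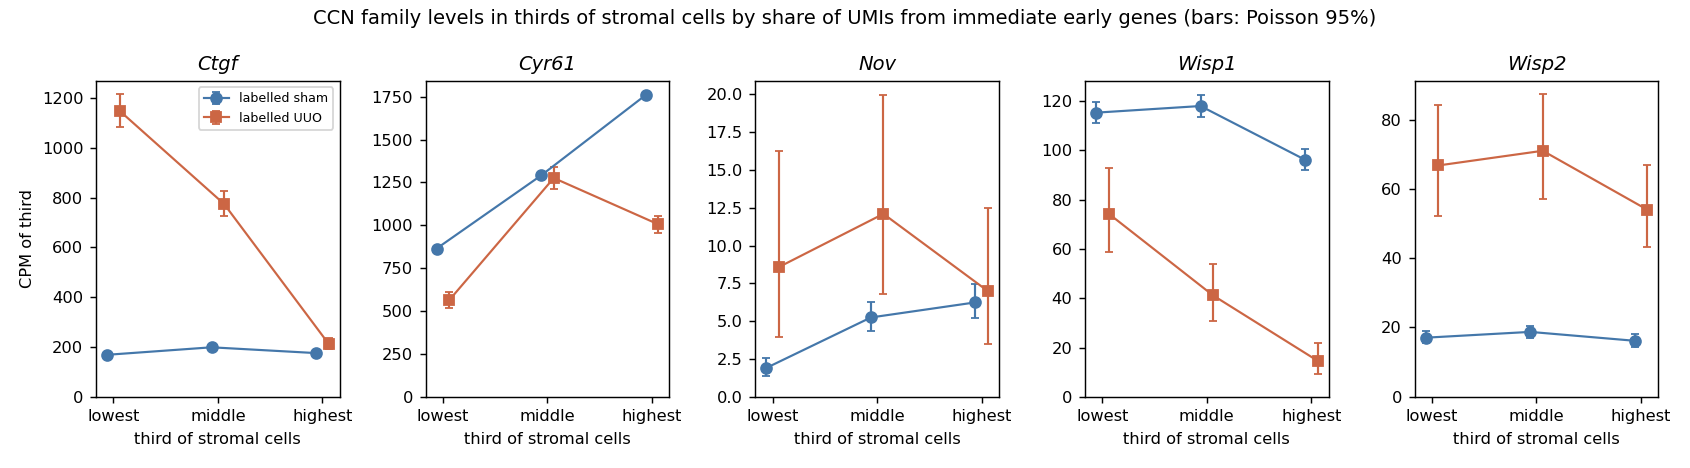
CPM of each gene in the terciles of stromal cells by share of UMIs from immediate early genes, with circles for the library labelled sham, squares for the library labelled UUO and bars for Poisson 95% intervals; each panel has its own axis from 0. Cyr61 labelled sham climbs from 865 to 1760.2 CPM, while Ctgf labelled UUO descends from 1149 to 213 CPM.

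Correlations across cells are given gene by gene as a description, over cells thinned to 1000 UMIs that share a library. Across 8016 stromal cells labelled sham, Cyr61 correlated above 0 with 20 of the 22 immediate early genes, with a median Pearson r of 0.09. The highest values over 1435 genes were with Dusp1, a phosphatase of MAP kinases (0.21), Fos (0.19), Jun (0.17), Junb (0.16) and Gadd45g, a stress sensor outside the list (0.16). Ctgf had values from -0.06 to 0.05 with the same 22 genes there, 10 of them above 0. Across 568 stromal cells labelled UUO, Ctgf correlated below 0 with 22 of 22, from -0.25 to -0.01 with a median of -0.14. Cyr61 was above 0 for 17 of 22 there, with a median of 0.03 and a highest value of 0.11. Coefficients this small in sparse counts are no finding singly.

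**Figure D4:**
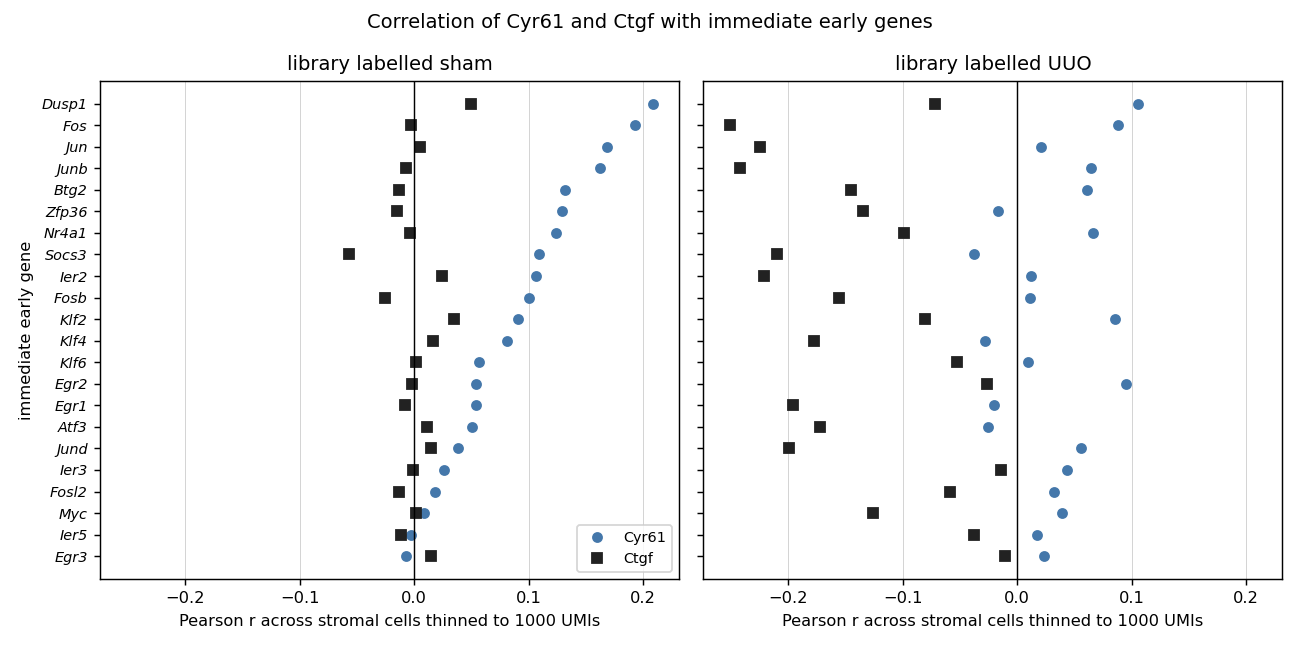
Pearson r of Cyr61 (circles) and Ctgf (squares) with each of 22 immediate early genes across stromal cells thinned to 1000 UMIs, in each library, ordered by the Cyr61 values labelled sham. All 22 squares labelled UUO lie below 0, and 20 of 22 circles labelled sham lie above 0.

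The genes closest to Ctgf with the label UUO included Fbln5, an elastic fibre protein (r 0.41), Igfbp3 (0.40), Hsd11b1, which activates glucocorticoids (0.35) and Igfbp7 (0.33), over 568 cells and 1431 genes. With the label sham the closest included Cyr61 (0.10), Igfbp7 (0.10), Thbs1 (0.09) and Col12a1 (0.07), all weak. Genes closest to Cyr61 labelled UUO included Ctgf (0.17), Loxl1 (0.15), Napa (0.14) and Ywhaq (0.14). Wisp2 labelled UUO was closest to Eln, the gene of elastin (0.44), the microfibril gene Mfap4 (0.41), Pi16 (0.24), F3 (0.23) and Mfap5 (0.22), where 6 cells held 61.3% of its counts before thinning. Its closest labelled sham were Crip1 (0.07), Dcn (0.06), Sparc (0.06), Mfap4 (0.06) and Col6a2 (0.06). For Wisp1 the closest were Cdc42ep3 (0.23), Sept11 (0.21), Adap2os (0.18), Mfge8 (0.18) and Hsd11b1 (0.17) labelled UUO, and Col8a1 (0.06), F2r (0.05), S100a16 (0.05), Timp3 (0.04) and Acta2 (0.04) labelled sham. For Nov, in few cells, the closest labelled UUO included Thra (0.20), Zfas1 (0.19), Maff (0.17) and Adamts2 (0.14).

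Among themselves the members labelled sham mostly occurred together about as often as their shares would give. Of 1028 thinned cells labelled sham with Ctgf, 645 also had Cyr61, where unrelated shares would give 560.2. Labelled UUO, 91 of 180 cells did, where unrelated shares would give 77.0. Ctgf and Wisp1 met in 16 of 568 cells labelled UUO, against 8.56. Ctgf and Wisp2 met in 13 there, against 7.29, and Cyr61 and Wisp2 in 15, against 9.84. Cyr61 and Wisp1 met in 13, against 11.6, while Nov met neither Wisp1 nor Wisp2 in that library. Nov and Wisp2 stood out labelled sham: 6 of 24 cells with Nov had Wisp2, or 25%, against 1.16% of cells without Nov, where 0.296 cells would be given.

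Nov and Wisp2 were both higher in stromal cells labelled sham that carried either of 2 marker sets, and by less with 1 more set. A cell counted as having a set when at least 2 of its genes had a UMI, and was compared with cells with none. The sets overlap and are ranges of cells, not types. Labelled sham, Nov was at 77.9 CPM in 182 cells with the set Ptx3, C3 and Sfrp4 and at 0.964 CPM in 6913 without, an 80.8-fold (58.7 to 113) ratio. Nov UMIs were found in 22.5% and 0.651% of those cells. It was at 87.5 and 1.24 CPM, 70.6-fold (51.6 to 97.0), with and without the Clec3b set, which shares Sfrp4. Wisp2 was 8.23-fold (6.95 to 9.72) and 10.2-fold (8.49 to 12.2) higher with these sets. With 5 CPM added, 3.34% and 4.17% of genes were at least 2-fold higher with the sets. Igfbp3, Adamts5 and Fbln5 made up the further set, with Nov at 6.60 against 1.21 CPM, on 210 and 10 counts. That was 5.44-fold (2.90 to 11.5) higher, and Wisp2 was 1.60-fold (1.30 to 1.97) higher with it. Median depths were 10061.5 and 7888 UMIs with and without the Ptx3 set.

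Labelled UUO, Wisp2 was 10.1-fold (4.20 to 31.9) higher in 156 cells with Car3 and Rbp4 than in 192 with neither, on 99 and 5 counts, where 2.40% of genes were at least 2-fold higher with 5 CPM added. It was 6.21-fold (2.37 to 23.1) higher with the Ptx3 set, on 150 and 4 counts, where 4.30% of genes were at least 2-fold higher. Shares of cells with a Wisp2 UMI were 16.03% with Car3 and Rbp4 and 2.60% with neither. For the Ptx3 set they were 12.1% and 3.01%. How the 6 cells that held 61.3% of Wisp2 counts fell in these splits was not tested. Cells without these sets were shallower, at medians of 2666.5 against 8921 UMIs for Car3 and Rbp4 and 2203 against 8502.5 for the Ptx3 set. Wisp2 was 14.2-fold (5.97 to 44.1) lower in 76 cells with both Clca3a1 and the angiotensin receptor Agtr1a, at 8.63 against 122 CPM. Wisp2 UMIs were found in 6.58% of those cells and 9.72% of cells without the set, a much smaller difference, and 6 of all 612 cells held 61.3% of the counts. Those 76 cells held more Ctgf and Wisp1. Ctgf was at 1131 against 401 CPM, 2.82-fold (2.53 to 3.15), and Wisp1 at 86.3 against 31.9 CPM, 2.70-fold (1.80 to 4.06), where 6.55% of genes were at least 2-fold higher with 5 CPM added and 4.33% lower. Their immediate early share was 1.09% of UMIs, against 2.45% without. With the label sham the same set had Ctgf at 177 and 189 CPM and Wisp1 at 142 and 104 CPM.

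Cyr61 varied least with the sets. Its ratio between cells with and without a set lay between 0.611 for Npr3, Serpine2 and Nkd2 labelled sham and 1.51 for the Car3 set labelled UUO. The 0.611 rests on 167 cells without the Npr3 set, at a median of 1601 UMIs against 9623 with it. Nppc, Gpm6a and Alx1 marked 1216 cells labelled sham with 1.35-fold (1.32 to 1.38) more Cyr61 and 1.58-fold (1.48 to 1.68) less Ctgf than the 2635 cells without them. Median depths of these cells were 10489.5 UMIs with the set and 6259 without. The contractile set of Acta2, Tagln and Myl9 went with 1.30-fold (1.21 to 1.39) more Cyr61 and 1.69-fold (1.29 to 2.24) more Wisp1 labelled sham, and with 1.58-fold (1.29 to 1.96) more Ctgf labelled UUO. Cells without that set were shallow, at a median of 2318 UMIs against 8891 labelled sham and 1774.5 against 7387 labelled UUO.

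**Figure D5:**
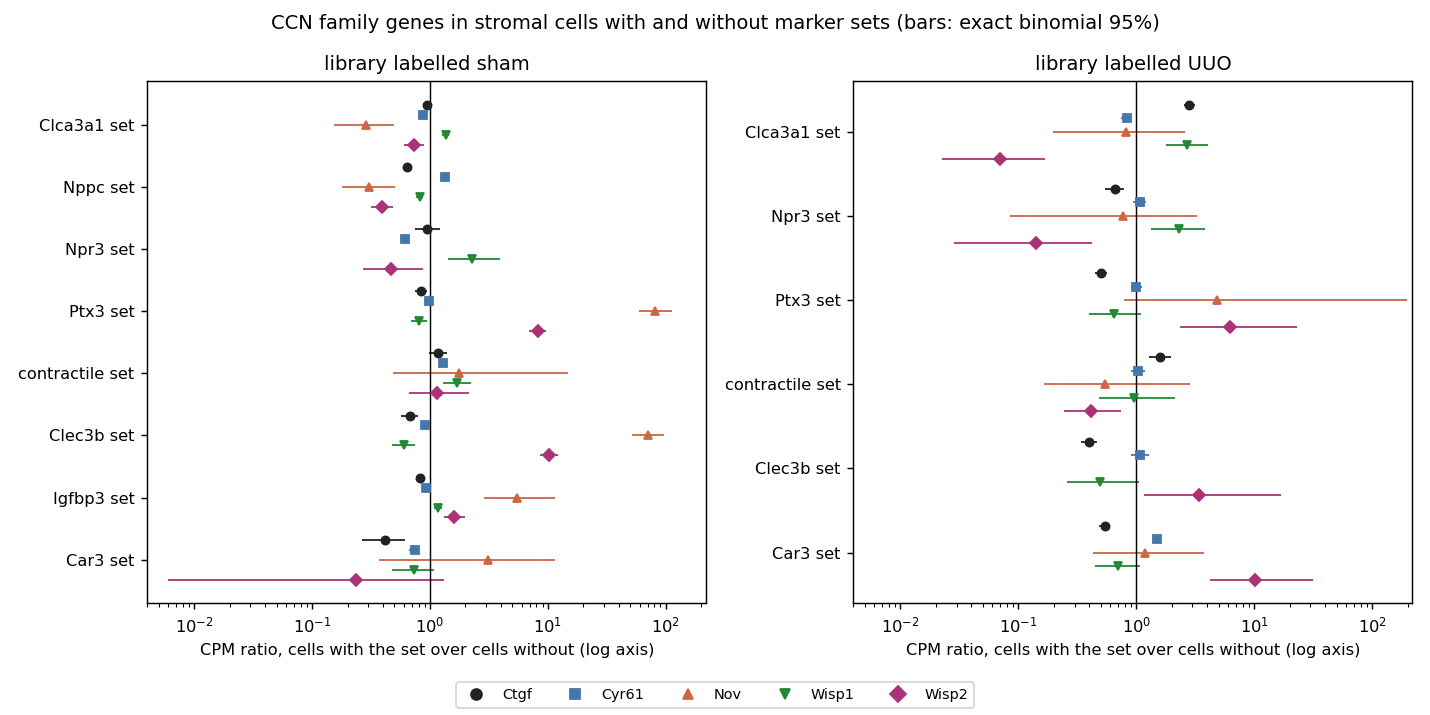
Ratio of CPM (log axis) between stromal cells with at least 2 genes of a set and cells with none, for each gene and set with counts on both sides and at least 10 in all, in each library; bars are exact binomial 95% intervals. Nov reaches 80.8 for the Ptx3 set labelled sham, and Wisp2 lies far to the left of 1 for the Clca3a1 set labelled UUO.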

How the data were processed

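The authors deposited expected counts of UMIs, not normalised, obtained using alevin (Salmon 0.13.1) and mm10, per the submitters' processing notes. Barcodes were kept with at least 500 UMIs, 300 genes and at most 20% mitochondrial UMIs (10656 and 1052). A Scrublet-like score then marked 908 and 9 doublets, 0.8% per 1000 cells, for removal. Stromal cells had at least 5 of 10 stromal markers, at least 60 of their UMIs per 10000, and no other class with 3 markers at 20 or more. Other classes had 3 markers and 40 UMIs. These minimums were set after marker levels had been seen, and 186 and 59 cells lay at 50 to 60 stromal UMIs, 308 and 55 at 60 to 70. Unassigned cells numbered 696 and 209.

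Counts were summed per class, rounded and scaled to CPM. Ratios carry exact conditional binomial, levels exact Poisson and shares Clopper-Pearson intervals. UMIs of free RNA are not separated. Log2 ratios and counts of genes at 2-fold used 5 CPM added and genes at 10 CPM or more. Genes were named by rule: the 5 members and Wisp3, the 2 highest and 2 lowest of each list (others in the text were chosen after their values were seen), the 5 highest correlations of a member found in at least 5% of unthinned stromal cells, among genes in at least 10% of thinned cells (some of these are not reported here), and Fos, Jun, Egr1 and Atf3 in the terciles. The members and lists were chosen with earlier results of these data known. Python 3.11.15, numpy 2.4.6, scipy 1.17.1, pandas 2.3.3 and scikit-learn 1.9.0 were used. Simulated counts with known ratios served to test the calculation.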

Additional observations from a re-analysis of the deposited data

How the results depend on the processing

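No paired analysis was possible because each group had 1 library. Log2 ratios here have 5 CPM added. All 5 stromal ratios kept their sign under 11 alternatives each, and 36 of 55 values stayed within the counting interval. For Ctgf, 1.81 at first, they were 2.05 with a stricter stromal rule that left 1034 and 40 cells, 2.03 with equal weight for each cell, 2.19 in cells with Xist only, 1.25 in cells with Y-linked UMIs only, 1.93 over all retained cells and 1.98 with the cells near other classes, an alternative chosen after seeing the data. For Cyr61, -0.40 at first, they were -1.11 with the stricter rule, -0.64 with equal weights, -0.32 in Xist cells and -0.48 over all cells. For Nov, 0.58 at first, they were 1.30 and 1.04 with the stricter rule and equal weights. For Wisp1, -1.38 at first, they were -1.05 in Xist cells and -1.66 in Y-linked cells. For Wisp2, 1.60 at first, they were 1.80 with 1 CPM added, 2.82 with the stricter rule, 0.062 in Xist cells, 2.25 in Y-linked cells and 1.32 over all cells. Leaving out cells with over 1% globin UMIs removed none, so the 5 values of that alternative could not move and are among the 36. The number of immediate early genes at 2-fold, 4 at first, was 2 with the stricter rule and 2 with equal weights. For the tercile ratios, 20 of 40 values moved and 35 kept their sign; labelled sham, Ctgf (0.06 at first) and Nov (0.70 at first) turned to 2-fold or more lower in Clec3b set cells, as listed here. Labelled sham, heat shock order gave 0.46 for Ctgf, 0.53 for Cyr61, 0.20 for Nov, -0.14 for Wisp1 and 0.38 for Wisp2, and Clec3b set cells gave -1.65, 0.051, -1.08, -1.28 and -0.35 in the same order, splits by this set having been added after seeing the data. Depth bins gave 0.99 for Cyr61. Labelled UUO, heat shock order gave -1.50 for Ctgf and 0.38 for Cyr61, depth bins 0.42 for Cyr61 and -1.13 for Wisp2, cells outside the Clec3b set -1.17 for Ctgf, 1.06 for Cyr61 and -1.03 for Wisp1, and cells with it 0.53 for Cyr61 and -0.998 for Wisp2. The causes were not tested. With 612 stromal cells labelled UUO, Nov rests on 35 counts and Wisp1 on 152.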
